A study of Mus musculus with 6 samples.

Results

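The immunoglobulin variable (V) genes were examined in RNA-seq of LSKs (Lin- Sca-1+ c-Kit+ bone marrow cells, the fraction in which hematopoietic stem cells lie, and so labelled by the submitters) of mice that had been irradiated. Members were the genes whose symbol starts with Ighv, Igkv or Iglv and a number and whose counts over the 6 libraries summed to at least 30. Of 55487 genes in the deposited table, 348 were V genes and 134 of these were members, with 68 from the heavy chain locus Igh on chromosome 12, 63 from the kappa light chain locus Igk on chromosome 6 and 3 from the lambda light chain locus Igl on chromosome 16. All 348 positions were the same in GENCODE M21, an annotation of the mouse build GRCm38. The annotation lists 133 members as V genes and Ighv3-2 as a pseudogene. Of the V genes left out, 155 were at 0 in all libraries and 59 held 1 to 29 counts.

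The samples were 3 libraries from Tespa1+/+ mice, labelled as wild-type littermates, and 3 from Tespa1-/- mice, all irradiated and all from bone marrow. Tespa1 is a thymocyte-expressed protein that acts in T cell receptor signalling. Per the methods of the study, the Tespa1-/- line (B6.129S-Tespa1tm1Smoc) was backcrossed to C57BL/6, the mice were males given a sublethal total body dose, and LSKs were sorted after staining that included CD3e, CD11b, Gr-1, B220 and Ter-119 as lineage antigens. The sources do not say if each replicate came from a single mouse or from several, so p-values measure the spread between these samples, which may be technical. The sort selects against B220+ cells, and the V counts are those of poly-A RNA-seq.

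Each V gene encodes most of an antibody variable domain. During B cell development the RAG recombinase joins a V segment to D and J segments at Igh, or to a J segment at Igk or Igl, and a B cell or plasma cell then transcribes mainly the V genes that it joined. V genes are grouped into families by sequence likeness, with the family as the number before the hyphen, as in Ighv1-81. Class switching later exchanges Ighm, the constant gene of IgM, for those of IgG or IgA. A stem or progenitor cell is not known to make mature antibody, although unrearranged V segments can be transcribed at a low level before they are joined. In bulk RNA, fewer cells of a type and less RNA per cell cannot be told apart.

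The total count ranged from 12856630 to 30576981 per library. Members held between 3859 and 8222 counts in a library, which limits what can be seen of a single gene. Tespa1 itself was at 34.4 ± 1.62 CPM (counts scaled to a common library size with TMM factors, SD, n = 3) in Tespa1+/+ and 14.6 ± 0.634 CPM in Tespa1-/- LSKs, lower and still counted in the knockout, and which part of the gene the allele removes was not given in the sources used here. The LSK markers Kit, Cd34, Flt3 and Ly6a were present in every library, at a summed 1106 to 1145 CPM in Tespa1+/+ and 615 to 634 CPM in Tespa1-/- LSKs. Over all genes the counts of libraries of the same group had a mean chi-square per degree of freedom of 7.66 to 9.98 and a median of 0.855 to 1.25, so the mean was carried by a minority of genes. Counting error alone gives a smaller median than these, so they do not place most genes at counting error. Libraries of a group were thus not treated as copies of each other.

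The sequences below show how close the V genes are that carry the comparison. They are up to 300 bases of the V exon, 5′ to 3′, from GENCODE M21 transcripts on GRCm38, and the pairs were chosen after their values were seen. Capitals mark the bases at which the 2 genes of a pair differ. The first pair is the 2 abundant lambda genes, which differ at 8 of 300 bases and went in opposite directions.
Iglv1 (chr16:19085017-19085316, minus strand): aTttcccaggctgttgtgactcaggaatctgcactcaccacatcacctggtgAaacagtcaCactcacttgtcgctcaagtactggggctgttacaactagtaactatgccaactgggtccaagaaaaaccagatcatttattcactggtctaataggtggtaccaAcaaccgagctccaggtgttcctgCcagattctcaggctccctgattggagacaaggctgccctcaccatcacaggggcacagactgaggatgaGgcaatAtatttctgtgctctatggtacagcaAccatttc
Iglv2 (chr16:19260401-19260700, minus strand): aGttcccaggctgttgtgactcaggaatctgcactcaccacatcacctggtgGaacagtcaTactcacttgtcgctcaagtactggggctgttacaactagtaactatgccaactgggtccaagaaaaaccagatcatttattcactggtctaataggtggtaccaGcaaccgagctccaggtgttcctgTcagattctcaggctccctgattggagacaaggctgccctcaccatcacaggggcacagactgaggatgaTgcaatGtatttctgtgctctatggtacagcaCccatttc
The next pair, from the Ighv1 family, differs at 4 of 300 bases.
Ighv1-52 (chr12:115145487-115145786, minus strand): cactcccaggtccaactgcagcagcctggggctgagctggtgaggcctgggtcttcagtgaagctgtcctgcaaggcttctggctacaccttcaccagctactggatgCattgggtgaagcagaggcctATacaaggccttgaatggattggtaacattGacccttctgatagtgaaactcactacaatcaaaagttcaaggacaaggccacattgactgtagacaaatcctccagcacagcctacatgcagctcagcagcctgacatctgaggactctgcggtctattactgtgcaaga
Ighv1-61 (chr12:115359140-115359439, minus strand): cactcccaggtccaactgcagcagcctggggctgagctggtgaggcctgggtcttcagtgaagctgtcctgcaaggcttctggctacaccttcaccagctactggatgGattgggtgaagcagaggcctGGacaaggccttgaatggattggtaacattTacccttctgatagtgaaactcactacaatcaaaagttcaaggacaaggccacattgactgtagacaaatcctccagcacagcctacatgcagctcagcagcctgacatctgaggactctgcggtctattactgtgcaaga
Also from Ighv1, the pair Ighv1-75 and Ighv1-77 differs at 15 of 300 bases.
Ighv1-75 (chr12:115833950-115834249, minus strand): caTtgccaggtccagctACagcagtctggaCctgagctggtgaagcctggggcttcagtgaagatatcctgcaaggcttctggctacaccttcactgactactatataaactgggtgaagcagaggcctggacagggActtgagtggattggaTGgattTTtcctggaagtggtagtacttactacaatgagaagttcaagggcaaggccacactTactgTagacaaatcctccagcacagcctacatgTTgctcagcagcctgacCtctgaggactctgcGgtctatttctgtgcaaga
Ighv1-77 (chr12:115861867-115862166, minus strand): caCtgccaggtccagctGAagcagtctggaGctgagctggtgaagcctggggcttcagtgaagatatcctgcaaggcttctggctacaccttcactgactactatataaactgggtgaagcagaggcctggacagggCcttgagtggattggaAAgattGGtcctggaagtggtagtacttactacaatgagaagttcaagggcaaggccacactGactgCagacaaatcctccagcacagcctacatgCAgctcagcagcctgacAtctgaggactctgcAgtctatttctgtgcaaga
The kappa pair of family 14 differs at 27 of 298 bases, and only its first gene was counted at more than 1 read in Tespa1+/+ LSKs.
Igkv14-126 (chr6:67896345-67896642, plus strand): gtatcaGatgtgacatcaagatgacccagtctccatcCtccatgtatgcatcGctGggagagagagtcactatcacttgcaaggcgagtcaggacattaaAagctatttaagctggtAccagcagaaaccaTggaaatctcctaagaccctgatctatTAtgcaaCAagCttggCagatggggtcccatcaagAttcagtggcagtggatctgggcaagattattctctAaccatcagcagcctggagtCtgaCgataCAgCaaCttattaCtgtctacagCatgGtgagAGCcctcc
Igkv14-111 (chr6:68256572-68256869, plus strand): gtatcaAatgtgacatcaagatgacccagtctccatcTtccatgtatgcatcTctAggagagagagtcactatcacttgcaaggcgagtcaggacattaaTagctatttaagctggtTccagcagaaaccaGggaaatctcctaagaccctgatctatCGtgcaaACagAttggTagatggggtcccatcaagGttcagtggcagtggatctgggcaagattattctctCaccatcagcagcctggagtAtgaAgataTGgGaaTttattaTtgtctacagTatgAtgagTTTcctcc
The last sequences, with no base in capitals, are the most abundant members that were at 0 in all Tespa1+/+ libraries.
Igkv15-103 (chr6:68437628-68437925, plus strand): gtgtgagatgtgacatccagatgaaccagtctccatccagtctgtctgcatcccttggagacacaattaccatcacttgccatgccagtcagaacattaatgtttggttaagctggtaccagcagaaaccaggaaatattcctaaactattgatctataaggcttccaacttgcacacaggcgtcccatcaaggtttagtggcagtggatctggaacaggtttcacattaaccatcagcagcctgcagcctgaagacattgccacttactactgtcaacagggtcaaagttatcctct
Igkv6-15 (chr6:70406469-70406766, minus strand): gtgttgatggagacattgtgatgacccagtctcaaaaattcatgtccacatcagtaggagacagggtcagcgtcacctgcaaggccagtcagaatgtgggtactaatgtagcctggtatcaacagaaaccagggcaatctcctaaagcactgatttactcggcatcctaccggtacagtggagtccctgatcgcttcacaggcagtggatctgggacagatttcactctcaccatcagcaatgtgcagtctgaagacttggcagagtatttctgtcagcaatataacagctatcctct

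Likeness decides how surely a read can be placed, and whether the authors counted reads that match several genes was not given. Of the 134 members, 18 had every stretch of 50 bases unique among the V transcripts and 21 had fewer than 50% unique. All stretches were unique in Igkv14-126, Igkv14-111, Igkv15-103 and Igkv5-39. Unique shares were 77.8% for Iglv1, 78.9% for Iglv2, 29.7% for Ighv1-52 and 38.1% for Ighv1-61. Ighv1-71 (2.58% unique), Ighv1-72 (7.49%) and Ighv1-62-2 (8.21%) were the least separable of the 134 members, and their levels are uncertain.

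To see how far the V genes differed between genotypes, the sum over members was compared first. V genes were at 269, 260 and 260 CPM in the Tespa1+/+ libraries and at 395, 403 and 395 CPM in the Tespa1-/- libraries, a ratio of the means of 1.51. All Tespa1-/- libraries lay above all Tespa1+/+ libraries. Igh V genes went from 99.7 ± 0.646 to 148 ± 2.10 CPM (SD, n = 3), 1.48 times, and Igk V genes from 140 ± 2.39 to 228 ± 6.55 CPM, 1.63 times. Igl V genes were at 23.6 ± 2.21 and 21.6 ± 1.96 CPM, with overlapping libraries. These ratios are a description with no test. The V exons are short, and short genes as a class were higher in Tespa1-/- LSKs: among 487 other tested genes with a union exon length in the range of the members (338 to 501 bases), 52.2% were called higher and 3.08% lower, and the median log2 fold change was 0.64 against 0.00 over all other genes. The summed V genes differed by 0.59 on the log2 scale. The part of gene length in this sum was not tested, since the length corrections in the closing section were fitted to single genes and not to sums.

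Single V genes moved far more than the sum. A gene was called at an adjusted p under 0.05 (edgeR quasi-likelihood test, Benjamini-Hochberg over 15332 genes) with a fold over 1.5. Of the 134 members, 121 passed the filter on low counts, and 72 of them were called higher and 29 lower in Tespa1-/- LSKs, 20 were not called, and 13 members were not tested. These were 59.5% and 24.0% of the tested members. Over all tested genes, 14.0% were called higher, 19.2% lower and 33.3% in either direction. Among the 487 other tested genes of like length, 52.2% were called higher and 3.08% lower. The share of members called higher was thus near that of short genes, and the share called lower was above it. The median log2 fold change of the tested members was 3.19. These counts depend on how members were chosen, since a gene with few or no counts in 1 group could enter only through high counts in the other. Of the members, 50 reached 30 counts in each group, and 10 of them were higher, 20 lower and 20 not called. Another 69 reached it in Tespa1-/- only, 11 in Tespa1+/+ only and 4 only over both groups together. The 50 shared genes held 87.5% to 88.0% of V counts in Tespa1+/+ libraries and 53.0% to 54.3% in Tespa1-/- libraries. All 3 Tespa1-/- libraries lay above all Tespa1+/+ libraries for 82 members and below them for 32, where the same held for 34.5% and 34.6% of all tested genes.

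**Figure D1:**
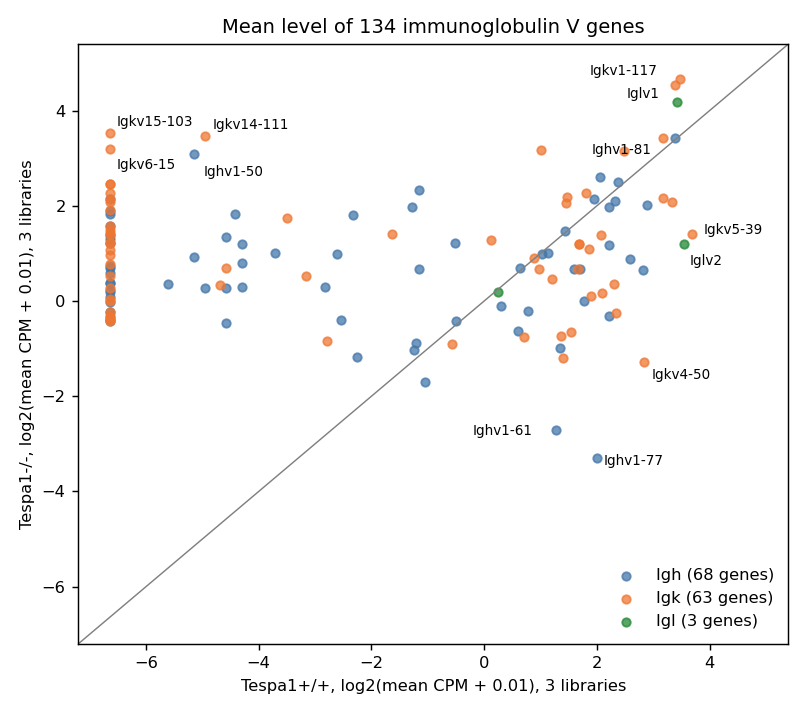
Each point is 1 of the 134 V genes, with its mean level over the 3 Tespa1+/+ libraries on the x axis and over the 3 Tespa1-/- libraries on the y axis, both as log2(mean CPM + 0.01) and coloured by locus. The grey line marks equal levels, and the column at the left edge holds the 45 genes that were at 0 in all Tespa1+/+ libraries.

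Many V genes were not counted at all in Tespa1+/+ LSKs. In all, 45 members (19 Igh and 26 Igk) were at 0 in all 3 Tespa1+/+ libraries, while each was counted in all 3 Tespa1-/- libraries, with 6 to 210 counts per gene and library. They made up 28.7%, 28.7% and 29.3% of V counts in the Tespa1-/- libraries. Another 14 members held 1 to 3 counts over the Tespa1+/+ group. In the other direction no member was at 0 in all Tespa1-/- libraries, and Ighv1-77, with 1, 2 and 1 counts, was the lowest there. Since members with 0 in Tespa1+/+ could pass the minimum only through Tespa1-/-, this count describes the members and is no test.

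Within Igh, family Ighv1, the largest of the mouse locus, took 42.2% ± 1.15 of Igh V counts in Tespa1+/+ and 54.6% ± 1.45 in Tespa1-/- LSKs (SD, n = 3). Of its 34 members, 21 were called higher, 4 lower and 6 not called. Ighv1-81 took the most Igh counts in every library, with 175, 374 and 145 in the Tespa1+/+ against 187, 152 and 132 in the Tespa1-/- libraries. At 10.4 ± 1.24 and 10.7 ± 0.259 CPM, its groups overlapped and it was not called (log2 fold change 0.03, SE 0.11, adjusted p 0.817). Its direction turned under several settings given in the closing section. Ighv1-50 was counted at 1, 0 and 0 in Tespa1+/+ and at 153, 122 and 100 in Tespa1-/- libraries. The ratio of its summed counts, scaled for depth, was 551 with a counting interval of 98.3 to 2.18e+04 (exact binomial, 95%, covering counting error only).

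Close relatives within Ighv1 moved apart. Ighv1-52 had 7, 13 and 6 counts in the Tespa1+/+ against 58, 59 and 53 in the Tespa1-/- libraries, a log2 fold change of 3.25 (SE 0.19, adjusted p 8.8e-06). Ighv1-61, which differs from it at 4 of the 300 bases shown, had 47, 80 and 31 counts in the Tespa1+/+ against 5, 2 and 0 in the Tespa1-/- libraries, a change of -3.88 (SE 0.46, adjusted p 0.000263). In both genes the groups did not overlap. Ighv1-52 reached 30 counts only in Tespa1-/- and Ighv1-61 only in Tespa1+/+, so for them this is no test. All Tespa1-/- libraries lay above for 34.5% and below for 34.6% of all tested genes. Ighv1-75 had 0, 2 and 2 against 39, 23 and 27 counts (4.88, SE 0.48, adjusted p 0.000103). Its relative Ighv1-77 had 80, 122 and 55 against 1, 2 and 1 counts (-5.35, SE 0.27, adjusted p 5.2e-06). How reads that match both genes of a pair were assigned was not given. Ighv1-74 and Ighv1-82 rose by 3.43 (SE 0.18) and 4.18 (SE 0.26), while Ighv1-66 (-1.73, SE 0.21) and Ighv1-26 (-1.07, SE 0.17) fell.

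Of the other Igh families, Ighv14 was almost uncounted in Tespa1+/+ LSKs. Its 4 members together held 1, 0 and 1 counts in the Tespa1+/+ against 188, 152 and 107 in the Tespa1-/- libraries, that is, 0.0409% ± 0.036 and 6.78% ± 0.761 of Igh V counts. The ratio of its sums was 328 with a counting interval of 90.4 to 2.72e+03. Ighv14-3 was at 0 in Tespa1+/+ and at 84, 60 and 51 counts in Tespa1-/- libraries, 95.5-fold higher against a floor of 3 counts over the group (counting interval from 76.9). Ighv9 held 18, 26 and 22 counts against 91, 77 and 83, with Ighv9-3 at 13, 15 and 13 against 36, 34 and 31 counts (log2 fold change 1.81, SE 0.25). Within Ighv8, Ighv8-8 was at 0 in Tespa1+/+ and at 58, 53 and 45 counts in Tespa1-/- libraries.

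Families Ighv5, Ighv2, Ighv11, Ighv10, Ighv7, Ighv6 and Ighv12 took a smaller share of Igh V counts in all Tespa1-/- libraries than in any Tespa1+/+ library. Since the Igh V sum rose, a smaller share need not be a lower level. Ighv2 went from 9.21% ± 0.379 to 5.88% ± 0.032, with Ighv2-9, second to Ighv1-81 in summed Igh counts, at 142, 228 and 108 against 72, 52 and 53 counts (-0.88, SE 0.11, adjusted p 0.00036). In CPM the Ighv2 sum was 9.19 ± 0.434 and 8.70 ± 0.159, with overlapping libraries, and 2 of its 4 members were called higher and 2 lower. Ighv6 went from 4.21% ± 0.157 to 2.67% ± 0.39, and neither of its members, Ighv6-6 and Ighv6-3, was called. Ighv5 went from 15.6% ± 0.839 to 5.60% ± 0.607 of Igh V counts. Its leading gene Ighv5-17 had 132, 207 and 108 counts in the Tespa1+/+ against 37, 17 and 17 in the Tespa1-/- libraries (-2.13, SE 0.21, adjusted p 1.0e-04), and Ighv5-4 (-1.02, SE 0.14) and Ighv5-9 (-1.78, SE 0.36) were also lower. In the same family Ighv5-12 was at 0 in Tespa1+/+ and at 15, 11 and 16 counts in Tespa1-/- libraries. Ighv10-3 fell from 89, 123 and 76 counts to 16, 7 and 12 (-2.52, SE 0.25), whereas Ighv10-1 had 1, 0 and 0 against 42, 23 and 20 counts. Ighv11-2, the only Ighv11 member and a gene known from B-1 cells, was at 5.21 ± 0.150 and 5.63 ± 0.882 CPM and was not called (0.11, SE 0.14, a sign that turned after the length corrections). Ighv12-3, also known from B-1 cells, fell from 31, 49 and 19 counts to 12, 14 and 3 (-1.21, SE 0.37, adjusted p 0.0231), a call that was lost under DESeq2 and under 3 of the 6 fits that left out a library.

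**Figure D2:**
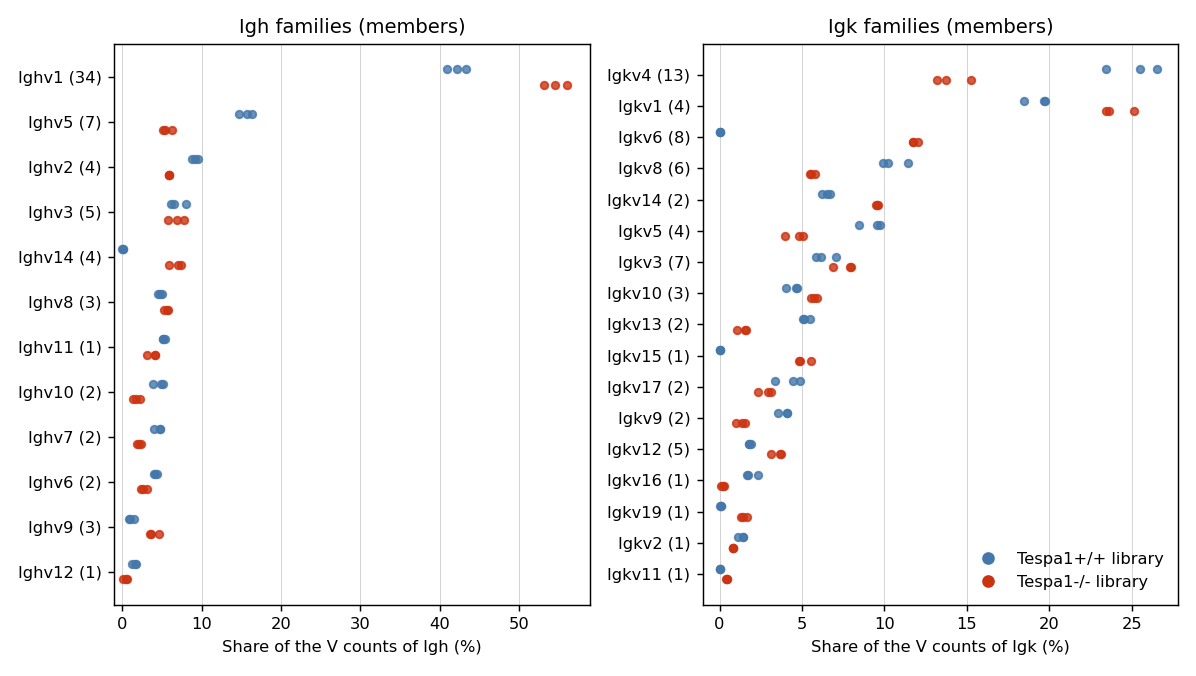
Each row is a V family of Igh (left) or Igk (right), with its number of members in parentheses, and each point is the share of that locus' V counts in 1 library, with Tespa1+/+ in blue and Tespa1-/- in red. Ighv14, Igkv6 and Igkv15 sit at or next to 0 in the Tespa1+/+ libraries, and Ighv5 and Igkv4 sit higher there.

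In Igk, some families were not counted in Tespa1+/+ LSKs. All 8 members of Igkv6 were at 0 in every Tespa1+/+ library, and together they held 443, 399 and 342 counts in Tespa1-/- libraries, 11.9% ± 0.178 of Igk V counts. Against the floor of 3 counts this was 580-fold higher (counting interval from 471). Igkv6-15 led with 161, 119 and 120 counts, and Igkv6-23 followed with 85, 87 and 68. Igkv15-103, the only Igkv15 member, was at 0 against 210, 166 and 136 counts, 251-fold higher against the same floor (counting interval from 203). It was 1 of the 4 highest V genes in Tespa1-/- LSKs per kilobase of exon (30.9 CPM per kb). Igkv11-125 was at 0 against 14, 16 and 13 counts. Igkv19-93 had 2, 4 and 0 against 48, 49 and 47 counts (5.06, SE 0.39, adjusted p 3.3e-05). In every member of these families the groups did not overlap, as all Tespa1-/- libraries lay above for 34.5% of all tested genes. Members at 0 in Tespa1+/+ entered only through their Tespa1-/- counts, so for them this is no test.

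In the Igkv1 family, both abundant genes rose. Igkv1-117 had 194, 326 and 182 counts in the Tespa1+/+ against 407, 415 and 295 in the Tespa1-/- libraries, 11.1 ± 1.04 against 25.4 ± 2.74 CPM (adjusted p 6.5e-05). Igkv1-110, its nearest V gene in sequence, with which it shares many 50-base stretches (unique shares 49.1% and 50.1%), was at 10.5 ± 0.867 against 23.1 ± 0.853 CPM (1.14, SE 0.09). They were the 2 highest V genes of Tespa1-/- LSKs per kilobase of exon, at 62.9 and 57.6 CPM per kb. The genes of the Igkv14 family differed from each other. Igkv14-126 was at 161, 285 and 137 against 163, 166 and 140 counts and was not called (0.25, SE 0.10, adjusted p 0.0606), and its sign turned after the length corrections. Igkv14-111 was at 0, 0 and 1 against 198, 159 and 129 counts, a ratio of sums of 714 with a counting interval of 128 to 2.83e+04. Every stretch of 50 bases is unique in these 2 genes.

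The kappa genes that fell were led by Igkv5-39, the highest V gene of Tespa1+/+ LSKs per kilobase of exon (37.3 CPM per kb). It had 219, 418 and 201 counts in the Tespa1+/+ against 41, 35 and 39 in the Tespa1-/- libraries, 13.0 ± 0.790 against 2.65 ± 0.425 CPM (-2.30, SE 0.13, adjusted p 8.0e-06). In the same family, Igkv5-48 was at 0 against 83, 47 and 57 counts. Igkv4-50 fell from 129, 214 and 113 counts to 11, 1 and 6 (-4.11, SE 0.36, adjusted p 5.6e-05), and Igkv4-59, with only 25.7% unique stretches, fell less (-1.23, SE 0.12). Igkv4-91 went from 8.97 ± 2.71 to 4.45 ± 0.407 CPM (adjusted p 0.0077). Of all members it varied most within a group relative to counting error, at 11.8, 6.37 and 8.77 CPM in the Tespa1+/+ libraries. Family Igkv4 as a whole went from 25.1% ± 1.57 to 14.0% ± 1.07 of Igk V counts. Its summed level changed less, at 35.2 ± 2.74 and 32.0 ± 1.51 CPM with overlapping libraries, while the Igk V sum rose. Of its 13 members, 7 were called higher and 5 lower. Igkv4-55 (39, 64 and 27 against 153, 128 and 112 counts, 2.15, SE 0.11) and Igkv4-70 (3.19, SE 0.32) were among those that rose. Igkv8-21 (-2.64, SE 0.24), Igkv16-104 (-2.62, SE 0.32), Igkv3-5 (-2.26, SE 0.32), Igkv12-98 (-2.15, SE 0.29), Igkv8-28 (-1.93, SE 0.23) and Igkv13-84 (-1.78, SE 0.16) were lower too. In Igkv12, 4 genes that were at 0 in Tespa1+/+ LSKs were called higher beside the fall of Igkv12-98.

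Over the 32 families, 22 had 2 or more members, and 10 of these held both a member called higher and a member called lower. In 16 of the 32 families no member was called lower, and in 10 no member was called higher. Over all tested genes, 14.0% were called higher and 19.2% lower. In 3 families (Igkv6, Igkv11 and Igkv15) all members were at 0 in Tespa1+/+ LSKs. Those members entered only through their Tespa1-/- counts, so these family counts are a description.

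The table holds only 3 lambda V genes, and each was a member. Iglv2 (chromosome 16, 19260401 to 19260859) had 260, 334 and 151 counts in the Tespa1+/+ against 44, 38 and 21 in the Tespa1-/- libraries, 11.7 ± 2.28 against 2.30 ± 0.524 CPM (-2.33, SE 0.21, adjusted p 6.4e-05). Iglv1 (chromosome 16, 19085017 to 19085500) had 183, 363 and 157 against 336, 249 and 217 counts, 10.7 ± 0.719 against 18.1 ± 1.40 CPM (0.76, SE 0.09, adjusted p 0.000304). The rise of Iglv1 was no longer called after either length correction. Iglv3 had 31, 21 and 17 against 25, 15 and 11 counts and was not called (0.04, SE 0.40, adjusted p 0.939), and the sign of this value turned with the setting. As a share of Igl V counts, Iglv2 went from 49.3% ± 4.83 to 10.6% ± 2.08 and Iglv1 from 45.8% ± 6.35 to 84.2% ± 2.58. Iglv2 is joined mostly to Iglc2, and Iglv1 to Iglc1 or Iglc3. Iglc2 fell from 8.99 ± 0.787 to 3.91 ± 0.470 CPM (-1.19, SE 0.13) and Iglc1 rose from 6.93 ± 0.423 to 12.2 ± 0.995 CPM (0.81, SE 0.10), a rise that was again not called after either length correction. Lambda took 13.6% to 15.5% of light chain V counts in Tespa1+/+ and 8.07% to 9.71% in Tespa1-/- libraries.

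To describe usage within a library, V counts were set against the V total of the same library. In Tespa1+/+ libraries 78, 80 and 79 of the 134 members were detected, and in Tespa1-/- libraries 134, 134 and 133. When every library was thinned to 3859 V counts, the numbers expected were 76.6, 77.7 and 79.0 against 133, 133 and 133, so the difference was as large at equal depth. The inverse Simpson index, the number of equally used genes that would give the same concentration, was 40.3 to 40.5 in Tespa1+/+ and 50.2 to 52.1 in Tespa1-/- libraries. The 10 most used members held 39.1% to 39.3% of V counts in Tespa1+/+ and 34.3% to 34.9% in Tespa1-/- libraries. The leading gene was Iglv2 or Igkv5-39 in Tespa1+/+ libraries, at 5.08% to 5.32% of V counts, and Igkv1-117 in Tespa1-/- libraries, at 6.03% to 7.09%. Since all members were chosen on the sum over both groups, the number detected in 1 group is a description.

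**Figure D3:**
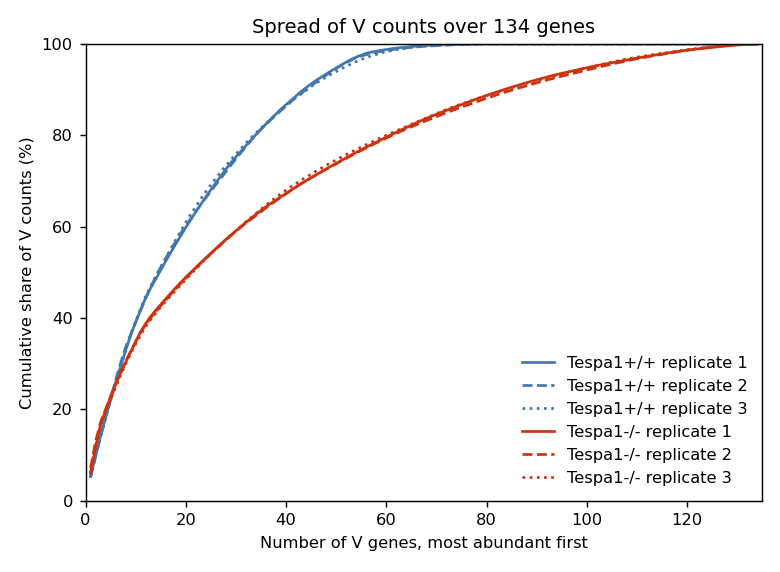
The cumulative share of V counts is plotted against the number of V genes, ordered from the most to the least abundant in each library, with Tespa1+/+ in blue and Tespa1-/- in red. The 3 curves of a group lie almost on each other, and the Tespa1+/+ curves reach their end at 78 to 80 genes while the Tespa1-/- curves go on to 133 or 134.

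Usage was nearly the same among libraries of a group. The share of V usage that 2 libraries had in common was 90.9% to 92.1% within a group and 46.5% to 49.4% between groups. The Morisita-Horn index, which is 1 for identical usage, was 0.978 to 0.991 within and 0.613 to 0.659 between groups. Across the 134 genes, which are not independent replicates and share the libraries' depth, Spearman's rho was 0.91 to 0.96 within and 0.08 to 0.16 between groups. Relative to counting error alone, the variance of a gene among the libraries of a group had a median ratio of 1.15 in Tespa1+/+ (66 genes) and 0.922 in Tespa1-/- LSKs (131 genes). With 3 libraries, a ratio of this kind has a median below 1 under counting error alone, so these medians do not place V usage at counting error. Pooled over all members, the spread between 2 libraries of a group was 1.16 to 2.17 times counting error. Whether those libraries came from separate mice was not given, and if they did not, genotype and mouse cannot be told apart. Igkv4-91 (20.2 times counting error) and Iglv2 (8.51 times) had the highest ratios in Tespa1+/+ and Igkv3-4 (6.40 times) in Tespa1-/- LSKs.

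Position within the locus was compared for the loci with many members. The D-proximal side of Igh, with 39 members up to the midpoint of the span, held 57.6% to 60.4% of Igh V counts in Tespa1+/+ and 47.8% to 50.1% in Tespa1-/- libraries, so the groups did not overlap. On that side 17 members were called higher and 10 lower, and among the 29 distal members 18 were called higher and 3 lower. Over all tested genes, 14.0% were called higher and 19.2% lower. In Igk the 23 distal members held 54.3% to 55.7% against 54.7% to 56.5%, with overlapping libraries. Members at 0 in Tespa1+/+ were 22 of the 40 J-proximal Igk members and 4 of the 23 distal members. All 8 members of the single family Igkv6 are among these 22. Members at 0 entered only through their Tespa1-/- counts, so this describes the members and is no test. Igk V genes lie in both orientations, and the 24 members on the plus strand took 44.7% to 46.1% of Igk V counts in Tespa1+/+ and 53.3% to 56.9% in Tespa1-/- libraries. Of these 24, 13 were called higher and 5 lower, and of the 39 members on the minus strand 23 were called higher and 10 lower. Abundant genes that rose lie on both strands. Igkv1-117, Igkv1-110, Igkv15-103 and Igkv14-111 are on the plus strand, and Igkv6-15, Igkv4-55 and Igkv10-96 on the minus strand. These shares and counts were not tested.

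**Figure D4:**
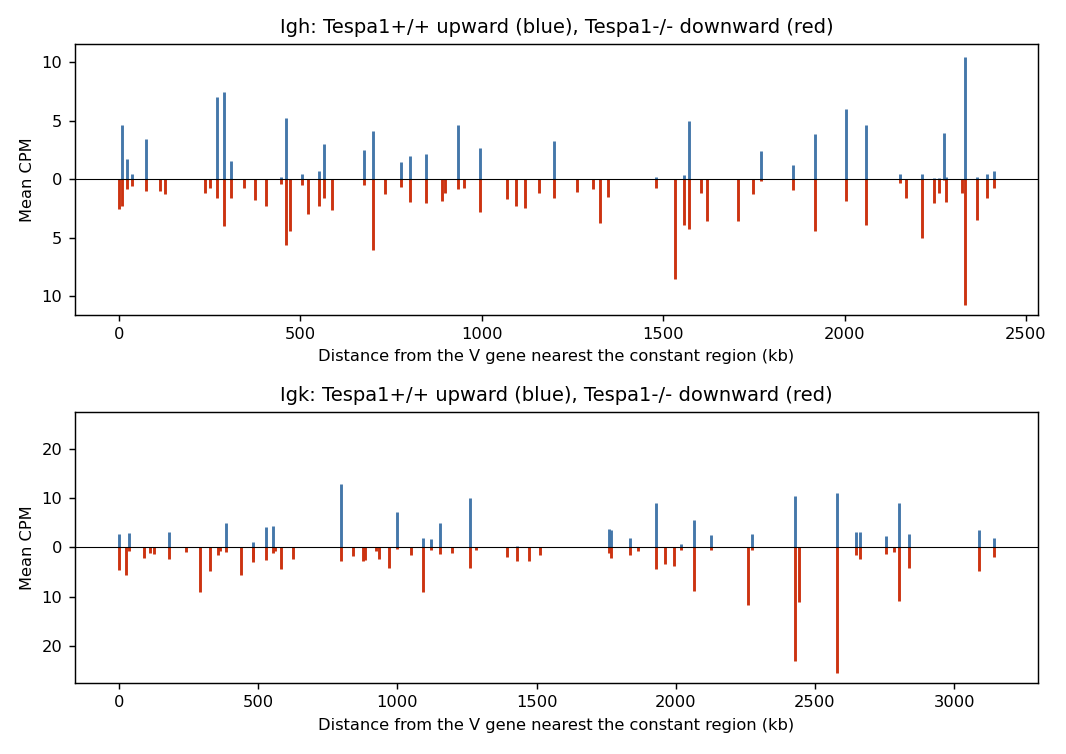
Each bar is a V gene of Igh (top) or Igk (bottom) at its distance in kb from the member nearest the constant region, with its mean CPM over 3 libraries drawn upward for Tespa1+/+ (blue) and downward for Tespa1-/- (red). Genes with a bar only below the line were at or near 0 in Tespa1+/+ libraries. Of the 26 Igk genes at 0, 22 lie on the J-proximal side, which holds 40 of the 63 Igk members. Genes at 0 entered only through their Tespa1-/- counts.

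The constant genes to which V genes are joined were compared as the next list, of 13 genes. Of these, 8 were called higher and 3 lower in Tespa1-/- LSKs and 2 were at 0. Ighm, the IgM constant gene, was at 250 ± 5.92 CPM in Tespa1+/+ and 131 ± 5.13 CPM in Tespa1-/- LSKs (-0.93, SE 0.04). Igha, that of IgA, was at 217 ± 2.65 and 499 ± 17.6 CPM (adjusted p 9.1e-07). Ighg2c, which held the most Ighg counts in Tespa1-/- libraries, had 3, 0 and 0 against 1130, 978 and 809 counts. The ratio of its sums was 1428 with a counting interval of 488 to 6.93e+03. Ighg2b had 3, 18 and 6 against 422, 352 and 346 counts (5.94, SE 0.24), and Ighg3 had 1, 0 and 3 against 78, 87 and 75 (6.31, SE 0.49). Ighg1 was at 0 against 34, 34 and 29 counts, 47.5-fold higher against the floor of 3 counts (counting interval from 37.9). The Ighg genes together took 0.0835% to 0.129% of heavy constant counts in Tespa1+/+ and 13.3% to 14.2% in Tespa1-/- libraries. Igha went from 45.6% to 46.8% up to 67.9% to 68.9%, and Ighm from 52.9% to 54.0% down to 17.4% to 18.5%. Ighd, which is co-expressed with Ighm on naive B cells, was lower (-1.74, SE 0.43).

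**Figure D5:**
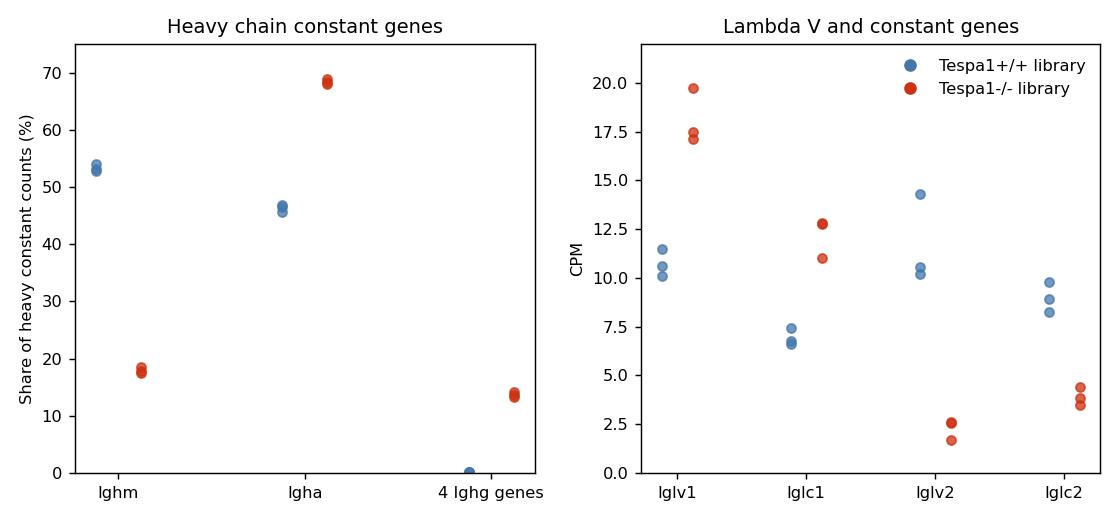
Left, the share of heavy chain constant counts (%) taken by Ighm, Igha and the 4 Ighg genes in each library, and right, the CPM of the lambda V genes Iglv1 and Iglv2 and the constant genes Iglc1 and Iglc2, with 1 point per library (Tespa1+/+ in blue, Tespa1-/- in red). The groups do not overlap in any column.

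Igkc, the kappa constant gene, was at 111 ± 0.350 and 248 ± 5.48 CPM (1.16, SE 0.03). The number of Igh V counts per 100 heavy constant counts was 20.9 to 21.8 in Tespa1+/+ and 19.7 to 20.8 in Tespa1-/- libraries. For Igk V against Igkc it was 124 to 128 and 86.8 to 95.7. V and constant counts thus rose together at Igh, and at Igk the constant gene rose more. D and J segments were near 0, at a summed 1.77 to 1.98 CPM in Tespa1+/+ and 0.689 to 1.13 CPM in Tespa1-/- libraries. Of 178 T cell receptor V genes, only Trbv13-2 reached 30 counts.

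Markers of cells that could carry V transcripts were given by list. Of 15 tested plasma cell genes, 3 were higher and 6 lower. The higher ones were Jchain, which links IgM and IgA chains (40.3 ± 13.4 against 90.7 ± 2.74 CPM, 1.18, SE 0.20), Fkbp11, a secretory pathway gene (11.7 ± 0.941 against 38.0 ± 1.79 CPM, 1.69, SE 0.08), and Derl3. Sdc1, the CD138 surface marker, fell from 14.0 ± 0.352 to 7.52 ± 0.636 CPM (-0.89, SE 0.09), and Irf4, a transcription factor of plasma cells, from 4.33 ± 0.371 to 1.91 ± 0.211 CPM (-1.18, SE 0.14). Of 8 tested mature B cell genes none was higher and 5 were lower, among them Pax5, a transcription factor of the B lineage (-2.36, SE 0.38), and Cd79a, a chain of the B cell receptor complex (-0.77, SE 0.16). Fcer2a and Cr2 were at 0 in all libraries, and Ms4a1, the CD20 gene, held 2, 0 and 3 counts in Tespa1+/+ and none in Tespa1-/- libraries. The 4 defining plasma cell markers, Jchain, Sdc1, Mzb1 and Tnfrsf17, summed to 49.2 to 72.6 CPM in Tespa1+/+ and 97.5 to 104 CPM in Tespa1-/- libraries, and of these only Jchain was called higher. Sdc1 was lower, Mzb1 was not called (2.62 ± 0.339 against 2.56 ± 0.326 CPM), and Tnfrsf17 held 3, 7 and 1 against 2, 0 and 0 counts and was not tested. Their part in the V counts was not tested.

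Genes of early B cell development and recombination were mostly lower. Of 18 tested, none was higher and 11 were lower. Rag1 and Rag2, the recombinase, fell by 2.97 (SE 0.23) and 2.18 (SE 0.30) on the log2 scale, and Dntt, which adds bases at the joints, fell from 151 ± 3.62 to 31.8 ± 1.43 CPM (-2.25, SE 0.05). Bach2 (-4.24, SE 0.19), Il7r (-1.75, SE 0.18), Ebf1 (-1.37, SE 0.14) and Prkdc (-1.06, SE 0.05) were lower. Of 3 octamer factor genes, whose products bind V promoters, none was higher and 2 were lower. Genes of other lineages also moved with genotype. The 6 neutrophil markers, all called higher, summed to 19.0 to 20.8 CPM in Tespa1+/+ and 457 to 482 CPM in Tespa1-/- libraries. The 4 erythroid markers (2 called higher) summed to 16.5 to 17.5 and 38.5 to 42.6 CPM and the 5 T cell markers to 3.17 to 3.36 and 1.37 to 1.58 CPM. Their part in the V differences was not tested.

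At the minimum of 30 counts, the members just inside were Ighv3-2 (5, 6 and 2 against 7, 7 and 5 counts), Ighv14-1 (0 against 8, 11 and 13) and Igkv4-61 (0, 0 and 6 against 12, 10 and 3). Just outside were Igkv1-122 (0 against 15, 5 and 9), Igkv9-129 (0, 2 and 0 against 6, 6 and 15) and Ighv7-4 (0 against 11, 12 and 5).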

How the data were processed

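RNA-seq of irradiated Tespa1+/+ and Tespa1-/- LSKs (3 libraries each) was analysed, with groups taken from the sample titles. Per the labels, poly-A RNA was made into stranded paired-end libraries. The authors deposited raw read counts and FPKM values (counts scaled by gene length and library total) for 55487 genes. The submitters' processing notes name CASAVA 1.8, HISAT2, StringTie, edgeR and GRCm38. Counter, strand setting and treatment of reads with several matches were not given in the sources used here.

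After filterByExpr, the counts of all 6 libraries entered a quasi-likelihood fit (edgeR 4.0.16, TMM scaling, genotype as the only term, R 4.3.3), and p-values of 15332 genes were adjusted by Benjamini-Hochberg. A called gene had a fold above 1.5 and passed an adjusted p of 0.05. Fold changes are log2 of Tespa1-/- over Tespa1+/+. CPM per kilobase used the union exon length. Deposited FPKM served only in an alternative, since the length they imply exceeded the genomic span of 41 members. Counting intervals are 95% exact binomial or Wilson intervals and cover counting error only. A group at 0 was set to a floor of 3 counts. Unique shares were computed over all stretches of 50 bases. Scripts were tested on simulated data.

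Named V genes were the 10 with the largest summed count in Igh and in Igk, all Igl genes, the leading member of each family, members called lower, uncalled members with over 3 counts in each Tespa1+/+ library, those next to the minimum, listed related genes and Tespa1. Further V genes at 0 in Tespa1+/+, the relatives shown by sequence and the most variable genes were chosen after their values were seen. Members and lists were chosen with earlier results of these data known. Alternatives were RLE factors, total counts, no filter, DESeq2 1.42.0, a replicate block, leaving out libraries, length corrections, a minimum of 100 counts and, for sums, FPKM and other member sets. Not every gene of the lists is reported here.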

Additional observations from a re-analysis of the deposited data

Results flagged for a closer look

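V genes with fewer than 30 counts were outside the comparisons and were flagged because they held more signal in Tespa1-/- than in Tespa1+/+ LSKs. The 59 such genes with any count summed to a mean of 11.6 CPM in Tespa1-/- (10.2 to 13.0 CPM) and of 1.36 CPM in Tespa1+/+ libraries (1.20 to 1.62 CPM). Of these, 32 were at 0 in all Tespa1+/+ and 10 in all Tespa1-/- libraries. They include Igkv1-122, Igkv9-129 and Ighv7-4. The difference was not tested, and groups of 3 were not examined for single outlying samples.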

How the results depend on the processing

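The count of members called higher (72) ranged from 66 to 79 and of those called lower (29) from 26 to 39 under all fits tried on the 134 members. Leaving out 1 library gave 69 to 79 higher and 26 to 29 lower. Same-numbered libraries did not deviate together (correlations 0.0459, 0.0107 and 0.0595), and a fit with a replicate block called 72 higher and 27 lower. With at least 100 counts, 40 members were higher, and among members with at least 75% unique stretches, an alternative chosen after seeing the data, 34 were higher and 18 lower, since fewer members entered. The 2 length corrections moved the members by a median of -0.47 (length implied by FPKM) and -0.61 (union exon length, added after seeing the data) and gave 66 higher in each and 38 and 39 lower. Total counts moved the median of all genes by -0.10.

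The log2 ratio of the summed V genes (0.59) was 0.49 with total counts, 0.54 with FPKM, 0.63 over every V gene and 0.41 over members with at least 100 counts, and 0.58 to 0.61 without 1 library. For Igh (0.57) these were 0.47, 0.43, 0.62 and 0.25, with 0.62 without Ighv1-81 and 0.56 to 0.58 without 1 library. For Igk (0.70) total counts gave 0.60, the minimum of 100 counts 0.58 and leaving out Igkv1-117 0.65, and leaving out a library 0.68 to 0.73. For Igl (-0.13), leaving out Iglv1 gave -1.91, FPKM turned it to 0.064, and leaving out a library gave -0.21 to -0.05.

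Of the 63 V genes of the naming rule that were tested, 35 kept direction and side of the adjusted p under every fit. Of the V genes printed, those that turned were not called in the main result. Ighv1-81 was at -0.070 with total counts, -0.55 and -0.60 after the length corrections, and -0.023 to 0.15 without 1 library. Ighv11-2 was at -0.43 and -0.47 and Igkv14-126 at -0.33 and -0.37 after the length corrections. Iglv3 was at -0.061 with total counts, -0.53 and -0.57 after the length corrections, -0.024 with DESeq2, -0.32 without Tespa1+/+ replicate 2 and -0.21 without Tespa1-/- replicate 1. Among the called V genes that lost the threshold were Iglv1 after the length corrections (0.19 and 0.14, adjusted p 0.127 and 0.244) and Ighv12-3 with DESeq2 (adjusted p 0.0602). Of the 63, 7 kept their sign but lost an adjusted p under 0.05 with DESeq2. The same held for 5 and 3 after the length corrections and for 2 to 6 in the fits without 1 library. The cause of these changes was not tested. Depth limits genes with few counts: 13 members were not tested.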
